A study of Rattus norvegicus with 4 samples.

Results

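The genes described here are those of the cytochrome P450 families 1 to 4, the UDP-glucuronosyltransferases, the glutathione transferases, the cytosolic sulfotransferases, the aldehyde dehydrogenases and the carboxylesterases, measured in the surface epithelium of rat distal colon. They were taken by a rule on the gene symbol that used no values. The rule was chosen with earlier results of these data known. Of the 13215 genes with a row of their own on the array, 79 carried such a symbol. Each member had a single row. The 79 genes comprised 33 P450 genes, 16 glutathione transferase genes, 12 aldehyde dehydrogenase genes, 8 sulfotransferase genes, 5 carboxylesterase genes and 5 genes of the second glucuronosyltransferase family.

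The cells were colonocytes shaken from the inverted distal colon of 4 Wistar rats aged 12 weeks, which had lost both adrenal glands 4 days earlier and drank 0.9% NaCl. Adrenalectomy removes the main source of aldosterone and corticosterone, and it applied to the control rats as well. In the aldosterone group, 2 rats received a subcutaneous injection of 50 µg of aldosterone per 100 g body weight and an osmotic minipump releasing 10 µg/kg per hour. In the vehicle group, 2 rats received vehicle by injection and a minipump with polyethylene glycol. The exposure lasted 2 h, and the cells of the aldosterone group met 100 nM of the hormone again during the 40 min of shaking. Each rat gave 1 exon array, and the question was which transcripts differ between hormone and vehicle.

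Detoxification in epithelia runs in steps. P450 enzymes, fed with electrons by the P450 reductase, oxidize drugs, fatty acids and steroids, while aldehyde dehydrogenases and carboxylesterases turn aldehydes into acids and cleave esters. Transferases then attach sulfate, glucuronic acid or glutathione, and membrane pumps export the conjugates. In the gut these enzymes meet compounds of the diet, bile and bacteria, and nuclear receptors and the antioxidant regulator NRF2 set their transcription.

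Values are log2 expression values, and differences are aldosterone minus vehicle on that scale. The 4 arrays had medians between 2.22 and 2.44 over the 19403 rows, and 65.0% of rows had a mean below 3, near the lower end of the scale. A mean above 4 over the 4 arrays was used to mark a gene as clearly measured. A row's value also depends on its probes, so that this bound marks rows and does not rank genes by transcript number. Genes of a subfamily resemble each other in sequence, and a row may also bind a relative's transcript. All 8 measured markers of surface colonocytes had means from 9.74 to 12.40. None of the 15 measured markers of fibroblasts, smooth muscle, leukocytes, enteroendocrine or tuft cells exceeded a mean of 4, nor did the 3 of cycling crypt cells. The endothelial markers listed were not analysed here. The 4 measured hepatocyte markers, of interest because many of the enzymes are best known from liver, lay between 1.93 and 2.55. Of the goblet cell markers 2 were measured, Tff3 with a mean of 10.65 and Spink4 with a mean of 1.88.

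Of the 79 genes, 17 had a mean above 4: 4 P450 genes, 5 aldehyde dehydrogenase genes, 6 glutathione transferase genes and 2 sulfotransferase genes. None of the 5 carboxylesterase genes did, and none of the 5 genes of the second glucuronosyltransferase family. The members just above the bound were Aldh6a1 (4.04) and Cyp4f6 (4.04), and those just below it were Gstm4 (3.85) and Gstm2 (3.84). The other 62 genes were at or below the bound, 53 of them below a mean of 3. That is 67.1% of all 79, close to the 65.0% of all rows.

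**Figure D1:**
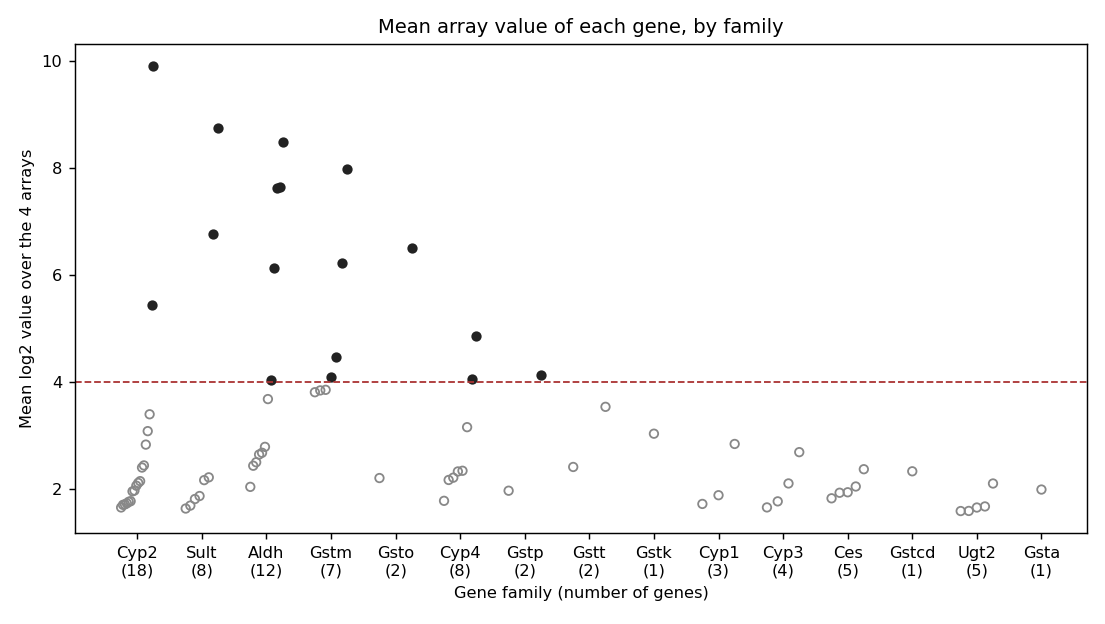
Mean log2 value over the 4 arrays (vertical axis) of each of the 79 genes, grouped by family (horizontal axis, with the number of genes). Filled points are the 17 genes above a mean of 4 (dashed line), open points the other 62, and the Ugt2, Ces, Cyp1 and Cyp3 families hold open points only.

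The sulfotransferase gene Sult1b1 was the member that separated the groups most clearly, higher in both aldosterone rats, and the mu-class glutathione transferase genes Gstm1 and Gstm2 and the retinaldehyde dehydrogenase gene Aldh1a3 were lower in both. In limma's fit with a constant prior variance, 0 of the 79 genes reached an adjusted p under 0.05, and so did 0% of all rows. With a prior that followed the expression level limma passed 0.108% of all rows and again 0 members. Over 13 settings of limma, the lowest adjusted p of any member was 0.367, for Aldh1a3. At an unadjusted p under 0.05 limma with the constant prior found 4 of 79 members (5.06%), against 4.53% of all rows. Of these members 1 was higher (Sult1b1) and 3 were lower (Aldh1a3, Gstm1 and Gstm2). A fold of 1.5 or more with an unadjusted p under 0.01 held for 2 members (2.53%), Sult1b1 and Aldh1a3, against 1.01% of all rows.

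Both aldosterone values exceeded both vehicle values in 14 of the 79 genes (17.7%), against 16.7% of all rows. Both lay below in 4 genes (5.06%), against 11.1% of all rows. This split depended on the scaling: it was 16 higher and 8 lower after quantile normalization, where all rows gave 17.2% and 15.4%, and 12 higher and 11 lower after centring of the arrays, where all rows gave 9.61% and 17.2%. Of the 14 higher genes, 12 had a mean below 3. Among the 17 genes above a mean of 4, 1 was higher without overlap (5.88%, against 13.4% of rows above 4) and 2 were lower without overlap (11.8%, against 18.7%). The other 14 overlapped. The median difference of the 17 genes was -0.080, where that of all rows above 4 was -0.041. For all 79 genes it was 0.018, where that of all rows was 0.024. Without aldosterone rat 1 the median of the 17 genes was 0.27.

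**Figure D2:**
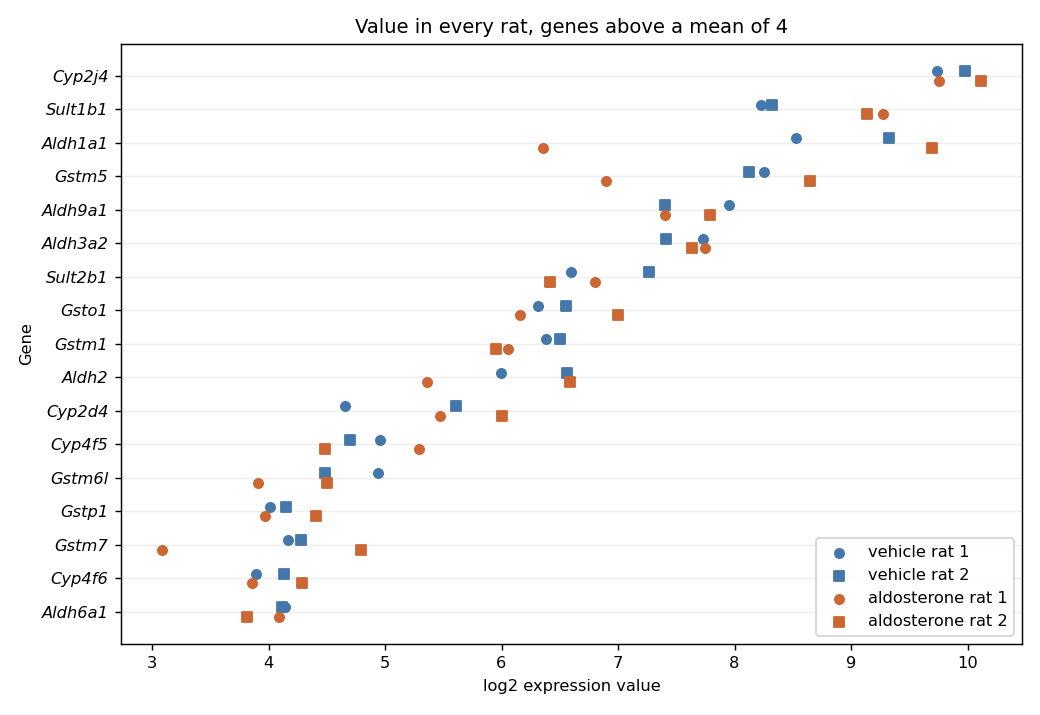
log2 expression value (horizontal axis) of the 17 genes above a mean of 4 in each of the 4 rats, with vehicle rats in blue, aldosterone rats in orange, rat 1 of a group as a circle and rat 2 as a square. Both orange points of Sult1b1 lie right of both blue points, and aldosterone rat 1 lies far left of the other rats for Aldh1a1, Gstm5 and Gstm7.

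The 250 bases before the annotated transcription start are shown for Sult1b1, for Gstm1 and Gstm2, whose groups did not overlap, and for Gstm5 and Gstm7, in which the aldosterone rats lay farthest apart among the mu-class genes. They are RefSeq promoters of the rat assembly GRCr8, written 5′ to 3′ on the strand of the gene. A promoter of that table matched 70 of the 79 members and 15 of the 17 above a mean of 4. Capitals mark the core of the xenobiotic response element (GCGTG), the core of the antioxidant response element (TGACNNNGC) and the half-site of corticosteroid receptors (TGTTCT), each searched on both strands. 
Sult1b1 (chr14:20771667-20771916, plus strand): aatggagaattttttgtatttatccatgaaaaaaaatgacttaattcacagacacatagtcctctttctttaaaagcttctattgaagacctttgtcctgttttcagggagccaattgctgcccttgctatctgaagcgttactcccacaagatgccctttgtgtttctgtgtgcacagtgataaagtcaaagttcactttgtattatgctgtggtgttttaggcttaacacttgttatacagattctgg
Gstm1 (chr2:198343384-198343633, minus strand): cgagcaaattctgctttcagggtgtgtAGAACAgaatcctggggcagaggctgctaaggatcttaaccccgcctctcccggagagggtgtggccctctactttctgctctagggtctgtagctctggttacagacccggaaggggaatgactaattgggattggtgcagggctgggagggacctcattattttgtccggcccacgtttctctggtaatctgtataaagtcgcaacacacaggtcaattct
Gstm2 (chr2:198316918-198317167, minus strand): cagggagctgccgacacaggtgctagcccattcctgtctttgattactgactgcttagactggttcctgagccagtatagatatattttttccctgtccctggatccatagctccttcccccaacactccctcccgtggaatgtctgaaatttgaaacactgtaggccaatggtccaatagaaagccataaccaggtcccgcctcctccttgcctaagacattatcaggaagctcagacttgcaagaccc
Gstm5 (chr2:198219519-198219768, plus strand): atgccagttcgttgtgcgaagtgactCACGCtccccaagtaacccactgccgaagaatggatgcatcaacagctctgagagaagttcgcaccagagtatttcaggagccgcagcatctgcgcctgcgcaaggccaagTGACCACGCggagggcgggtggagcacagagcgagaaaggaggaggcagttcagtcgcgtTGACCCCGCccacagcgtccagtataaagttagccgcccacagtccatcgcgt
Gstm7 (chr2:198260320-198260569, minus strand): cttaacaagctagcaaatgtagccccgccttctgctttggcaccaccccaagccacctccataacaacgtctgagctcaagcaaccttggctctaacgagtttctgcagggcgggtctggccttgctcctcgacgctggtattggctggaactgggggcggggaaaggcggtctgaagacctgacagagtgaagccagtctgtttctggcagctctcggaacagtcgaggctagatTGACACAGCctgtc

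The Sult1b1 and Gstm2 windows held none of these letters, and that of Gstm1 held a half-site on the opposite strand. The Gstm5 window held 2 antioxidant cores and 2 xenobiotic cores, of which 1 overlaps an antioxidant core. The Gstm7 window held 1 antioxidant core, ending 6 bases before the start. Among the mu-class windows not shown, that of Gstm4 held 2 xenobiotic cores. Over 33465 promoter windows of the same length, 25.9% held the xenobiotic core, 10.1% the antioxidant core and 17.5% the half-site. The 78 windows of the members held them in 25.6%, 11.5% and 20.5% of cases. The 15 windows of members above a mean of 4 held the xenobiotic core in 7 (46.7%), the antioxidant core in 3 (20%) and the half-site in 2 (13.3%). Best global alignments of the 6 mu-class windows with each other gave 45.5% to 55.4% identity (median 50.5%, 15 pairs). Alignments with the windows of other members above a mean of 3 gave 41.4% to 52.6% (median 48.8%, 102 pairs). These are matches of letters, and no binding was measured.

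Among the sulfotransferases, which transfer sulfate to phenols, thyroid hormones and steroids, 2 of 8 genes had a mean above 4. Sult1b1, whose enzyme acts on phenols and thyroid hormones, stood at 8.23 and 8.33 with vehicle and at 9.27 and 9.13 with aldosterone. The groups were separated by much more than the rats of a group differed. The difference was 0.92 (95% interval 0.62 to 1.23), a 1.90-fold higher value in 2 of 2 aldosterone rats, with an unadjusted p of 0.00105 and an adjusted p of 0.561 in limma (0.396 to 0.988 over the 13 settings). It lay between 0.86 and 0.99 with any of the 4 arrays left out. The mean of the 8 surface colonocyte markers was also slightly higher with aldosterone, 11.32 to 11.36 beside 11.16 to 11.21 with vehicle. The markers were uneven in this. Their differences were 0.55 for Slc26a3, 0.29 for Car4, 0.29 for Aqp8, 0.087 for Epcam, 0.067 for Krt20 and 0.020 for Guca2a. Those of Krt8 and Cdh1 were -0.004 and -0.021. The part of these markers in the Sult1b1 result was not tested. In a sample of many cells, more cells of a type and more RNA per cell cannot be told apart.

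Sult2b1, whose enzyme sulfates cholesterol and pregnenolone, stood at 6.60 and 7.27 with vehicle and at 6.80 and 6.42 with aldosterone. The groups overlapped, and the interval of the difference ran from -1.11 to 0.47. The 6 sulfotransferase genes at or below the bound were Sult1a1, Sult5a1, Sult1d1, Sult6b1, Sult1c3 and Sult2a2, all with means between 1.63 and 2.21, near the lower end of the scale.

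Glutathione transferases couple glutathione to reactive compounds. A lower mean in the aldosterone rats was found for 32 of the 79 members. Among them were all 7 measured genes of the mu class (median difference -0.40). These genes lie in a run of 9 mu-class genes without other coding genes between them on chromosome 2 in RefSeq, and their sequences are related, so that a row may also read a neighbour's transcript and the 7 values are not independent. Only Gstm1 and Gstm2 kept the groups apart, 2 of 7 genes (28.6%). The share lower without overlap was 11.1% of all rows and 18.7% of rows above a mean of 4. The 7 genes had means from 3.80 to 7.98, so that the rows above 4 are nearer to them in level.

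Gstm1 stood at 6.38 and 6.50 with vehicle and at 6.06 and 5.95 with aldosterone. Its difference was -0.44 (interval -0.74 to -0.13, adjusted p of 0.886 in limma), lower in 2 of 2 rats. Gstm2 stood at 4.09 and 3.98 with vehicle and at 3.70 and 3.58 with aldosterone, with a difference of -0.40 (interval -0.70 to -0.096, adjusted p of 0.909 in limma). Both differences were small beside that of Sult1b1 but larger than the gaps between rats of a group. With the constant prior limma gave unadjusted p-values of 0.0159 for Gstm1 and 0.0213 for Gstm2. With the prior that followed the expression level limma gave 0.180 and 0.164.

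In the other mu-class genes the aldosterone rats disagreed. Gstm5 stood at 8.25 and 8.12 with vehicle, at 6.89 in aldosterone rat 1 and at 8.65 in aldosterone rat 2. Gstm7 stood at 4.17 and 4.28 with vehicle, at 3.09 in aldosterone rat 1 and at 4.79 in aldosterone rat 2. In both genes the vehicle rats lay between the aldosterone rats. Gstm6l, which lies between these genes in the RefSeq order, stood at 4.94 and 4.49 with vehicle and at 3.91 and 4.50 with aldosterone. Gstm3 stood at 4.06 and 3.82 against 3.97 and 3.37, and Gstm4 at 3.78 and 4.08 against 3.48 and 4.06. Without aldosterone rat 1 only 4 of the 7 genes were lower, and Gstm5, Gstm7 and Gstm4 were higher by 0.46, 0.57 and 0.13.

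**Figure D3:**
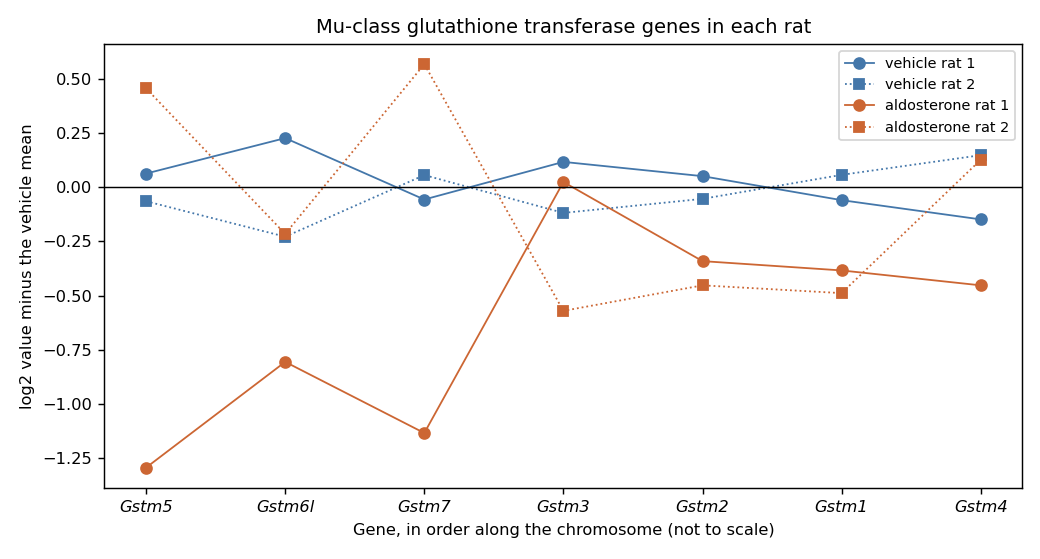
log2 value minus the vehicle mean (vertical axis) of the 7 mu-class genes in each rat, in their RefSeq order along the chromosome (horizontal axis, not to scale, with lines joining the values of a rat). Both aldosterone rats lie below the vehicle rats for Gstm2 and Gstm1, whereas aldosterone rat 1 is the lowest and rat 2 the highest for Gstm5 and Gstm7.

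In Gsto1, Gstp1, Gstt2 and Gstk1 of the other classes the groups overlapped. Gsto1, an omega-class enzyme that also reduces dehydroascorbate, stood at 6.31 and 6.55 with vehicle and at 6.16 and 7.00 with aldosterone, which enclosed the vehicle values. Gstp1, the pi-class enzyme, stood at 4.01 and 4.15 against 3.97 and 4.41, again enclosing them. The intervals of the differences ran from -0.73 to 1.02 and from -0.40 to 0.62. Gstt2 of the theta class stood at 3.36 and 3.46 with vehicle and at 3.46 and 3.85 with aldosterone, and Gstk1, the mitochondrial kappa-class enzyme, at 2.91 and 3.50 against 2.53 and 3.18. Gstt1, Gsto2, Gstp3 and Gsta6 had means from 1.96 to 2.41. Gstcd, which shares the name and a domain of the family, had a mean of 2.33.

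Aldehyde dehydrogenases oxidize aldehydes from retinol, ethanol, lipids and amines, and 5 of the 12 genes had a mean above 4. Aldh1a1, which makes retinoic acid from retinaldehyde in the cytosol, stood at 8.53 and 9.33 with vehicle, at 6.35 in aldosterone rat 1 and at 9.69 in aldosterone rat 2. Rat 1 of the aldosterone group was thus far below the other 3 rats, and rat 2 was the highest. The gap of 3.34 between the aldosterone rats was larger than that of all but 0.166% of rows above a mean of 4. The difference between the groups was -0.91 with an interval from -4.21 to 2.40, and without aldosterone rat 1 it was 0.77.

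The same rat was the lowest of the 4 in 8 of the 17 genes above a mean of 4 (47.1%), against 24.9% of all rows above 4. Aldosterone rat 2 was the highest in 9 (52.9%), against 21.8% of those rows, and both held in 7 (41.2%), against 8.54%. These shares are descriptions of single rats, and members of a family are not independent. Aldh2, the mitochondrial enzyme of acetaldehyde, stood at 6.00 and 6.56 with vehicle, at 5.36 in aldosterone rat 1 and at 6.59 in aldosterone rat 2. In the goblet cell gene Tff3, too, aldosterone rat 1 was the lowest and rat 2 the highest, at 11.12 and 10.74 with vehicle, 9.44 in aldosterone rat 1 and 11.30 in aldosterone rat 2. Spink4, the other measured goblet marker, did not share this order. It stood at 1.77 and 1.86 with vehicle and at 1.91 and 1.96 with aldosterone, near the lower end of the scale. The mean of these 2 markers ran from 6.30 to 6.45 in the vehicle rats and from 5.68 to 6.63 in the aldosterone rats. The part of goblet cell content in the values of Aldh1a1, Aldh2, Gstm5 and Gstm7 was not tested.

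Aldh1a3, another retinaldehyde dehydrogenase, had a mean of 3.68, below the bound, and is described because its values were seen to separate the groups. It stood at 3.94 and 4.32 with vehicle and at 3.21 and 3.23 with aldosterone. The aldosterone rats nearly coincided below both vehicle rats. The difference was -0.91 (interval -1.36 to -0.46, unadjusted p of 0.00490 and adjusted p of 0.757 in limma, 0.367 to 0.988 over 12 settings that kept its row), and it ran from -1.10 to -0.72 with an array left out.

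Aldh9a1, an enzyme of carnitine synthesis, stood at 7.95 and 7.40 with vehicle and at 7.40 and 7.79 with aldosterone. Aldh3a2, the fatty aldehyde dehydrogenase, stood at 7.73 and 7.41 against 7.75 and 7.63. The groups overlapped in both, with intervals from -0.78 to 0.62 and from -0.30 to 0.54. Aldh6a1, an enzyme of valine breakdown, stood at 4.14 and 4.12 with vehicle and at 4.09 and 3.81 with aldosterone. Its groups did not overlap, but its interval ran from -0.55 to 0.20. Aldh1a2, a further retinaldehyde dehydrogenase, had a mean of 2.64, and Aldh1b1, Aldh3a1, Aldh3b1, Aldh3b3 and Aldh7a1 had means from 2.04 to 2.78.

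**Figure D4:**
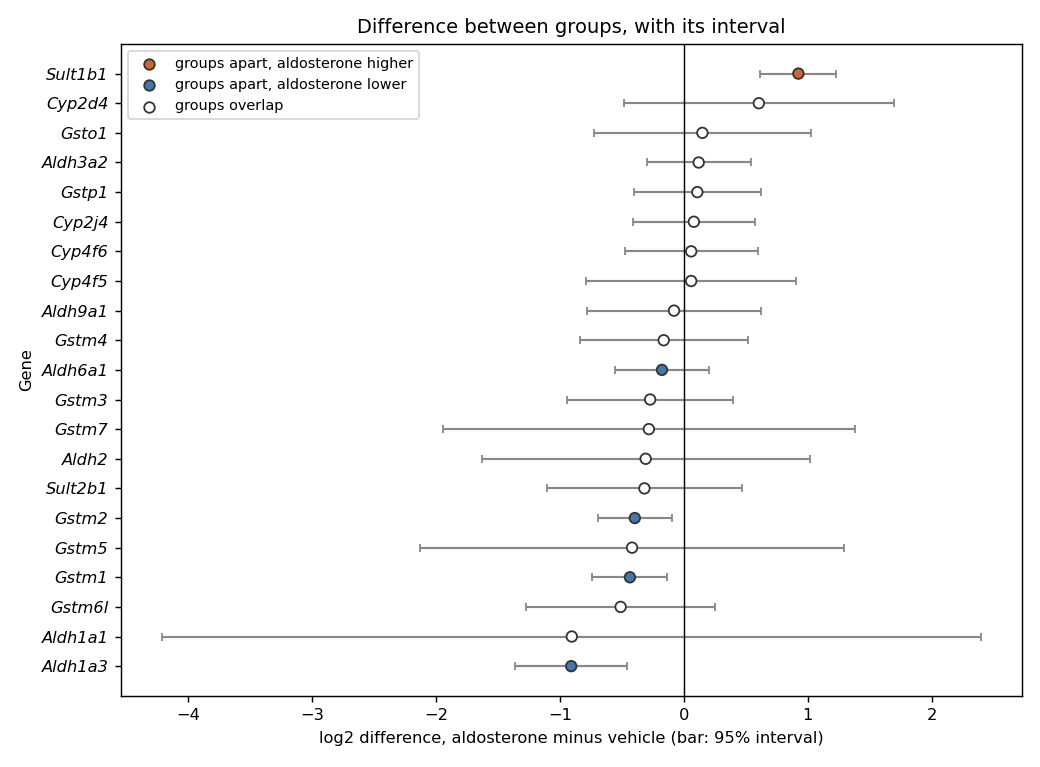
log2 difference, aldosterone minus vehicle (horizontal axis), of the 17 genes above a mean of 4 and of Aldh1a3, Gstm2, Gstm3 and Gstm4, with 95% intervals of limma's main fit. Filled points mark genes whose groups did not overlap, orange higher and blue lower with aldosterone; the interval of Aldh1a1 runs from -4.21 to 2.40, that of Sult1b1 from 0.62 to 1.23.

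Of the 33 P450 genes, 4 had a mean above 4, and in none of them did the groups separate. Rows with several gene symbols are not part of this count. Of such rows over all the families, 4 had a mean above 4, and their groups did not overlap, as given at the end. Cyp2j4, of a subfamily that epoxidizes arachidonic acid, stood at 9.74 and 9.98 with vehicle and at 9.76 and 10.12 with aldosterone. Its difference of 0.080 had an interval from -0.41 to 0.57. Cyp2d4, of a subfamily that oxidizes amine drugs, stood at 4.65 and 5.61 with vehicle and at 5.47 and 6.01 with aldosterone, which overlap through the higher vehicle rat. The interval of its difference ran from -0.48 to 1.69. Cyp4f5 and Cyp4f6 belong to a subfamily of omega-hydroxylases of leukotrienes and fatty acids. Cyp4f5 stood at 4.96 and 4.70 against 5.29 and 4.49, and Cyp4f6 at 3.89 and 4.13 against 3.86 and 4.28. In both the vehicle values lay between the aldosterone values.

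Several P450 genes lay between means of 3 and 4, namely Cyp2t1 (3.39), Cyp4b1 (3.15) and Cyp2u1 (3.08). Cyp4b1, a fatty acid and xenobiotic hydroxylase, had the largest difference of all 79 genes in size, 1.26, and is named for that value. It stood at 2.29 and 2.75 with vehicle, at 2.84 in aldosterone rat 1 and at 4.72 in aldosterone rat 2. The groups did not overlap, but aldosterone rat 1 lay next to the vehicle rats, and the interval ran from -0.62 to 3.14. The families known from drug metabolism in liver were near the lower end of the scale. Cyp1a2 had a mean of 2.84, Cyp1b1 of 1.88 and Cyp1a1, the classic target of the aryl hydrocarbon receptor, of 1.72. Of the Cyp3a genes, Cyp3a18 had a mean of 2.68 and Cyp3a2, Cyp3a23-3a1 and Cyp3a73 had means from 1.65 to 2.10. The 10 genes of the Cyp2a, Cyp2b, Cyp2c, Cyp2e and Cyp2g subfamilies lay between 1.65 and 2.14, as did Cyp2r1, a vitamin D hydroxylase, at 1.76. Cyp2d2 (2.83), Cyp2d3 (2.44) and Cyp2f4 (2.40) lay above them. Cyp4f18, Cyp4f1, Cyp4f4 and Cyp4x1 had means from 1.77 to 2.32. Cyp4a8-ps1, a pseudogene row by its symbol, had a mean of 2.34.

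The carboxylesterase genes Ces2c, Ces4a, Ces5a, Ces1e and Ces3a, whose enzymes cleave ester drugs and lipids, had means from 1.82 to 2.37. The glucuronosyltransferase genes Ugt2b1, Ugt2b, Ugt2b7, Ugt2b35 and Ugt2a1 had means from 1.58 to 2.10. Ces2c stood at 2.26 and 2.52 with vehicle and at 2.23 and 2.46 with aldosterone. Ugt2b1 stood at 1.76 and 2.32 against 2.04 and 2.27. Genes of the first glucuronosyltransferase family were not analysed here. Means this near the lower end of the scale do not show that the transcripts were absent.

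The partners of these enzymes were read from lists of regulators, cofactors, export transporters and other detoxification enzymes. The list named export transporters also held carriers of the Slco family beside the Abc pumps, and its counts and median cover both. Of the 72 measured genes on these lists, 0 reached an adjusted p under 0.05 with either prior of limma. At an unadjusted p under 0.05 the constant prior found 1 higher and 1 lower of 16 regulators, 2 higher and 1 lower of 14 cofactors, 1 higher and 2 lower of 12 transporters, and 1 higher and 3 lower of 30 other enzymes. In all, that is 12 of 72 (16.7%), against 4.53% of all rows, and the genes of the lists are not independent of each other. The lists were also chosen with earlier results of these data known. Of the 72 genes, 41 lay above a mean of 4, against 4815 of the 19403 rows. Those shares therefore do not test the lists. The median difference of the listed genes above a mean of 4 was -0.18 for 11 regulators, 0.037 for 12 cofactors, -0.20 for 6 transporters and -0.16 for 12 other enzymes, beside -0.041 for all rows above 4. These medians depended on single arrays. With 1 array left out they ran from -0.27 to -0.069 for regulators, from -0.14 to 0.098 for cofactors, from -0.39 to -0.015 for transporters and from -0.50 to 0.16 for other enzymes, and that of cofactors was -0.021 after centring of the arrays. The extremes came without vehicle rat 1 or 2 for regulators and transporters, without aldosterone rat 1 or vehicle rat 1 for cofactors and without aldosterone rat 2 or 1 for other enzymes.

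Among the regulators, Nr1h4, the bile acid receptor FXR, stood at 5.20 and 5.13 with vehicle and at 6.58 and 6.37 with aldosterone. It was 2.48-fold higher, with an adjusted p of 0.422 in limma. Pparg, a fatty acid sensor, stood at 5.41 and 5.87 against 4.94 and 5.14, and Nr1i3, the xenobiotic receptor CAR, at 4.82 and 5.49 against 4.50 and 4.62, both lower in 2 of 2 aldosterone rats. In Nr1i2, Ahr and Rxra the groups overlapped. Nr1i2, the receptor PXR, stood at 6.55 and 7.27 against 7.24 and 7.17. Ahr, the aryl hydrocarbon receptor, stood at 3.58 and 3.22 against 3.91 and 3.26. Rxra, the shared partner of the nuclear receptors, stood at 7.50 and 6.96 against 6.97 and 6.93. Of the other regulators, Keap1 and Rxrb were lower and Bach1 was higher without overlap, named here after their values were seen. Their differences were small beside their intervals. They were -0.12 for Keap1 (interval -0.44 to 0.20) and 0.060 for Bach1 (interval -0.21 to 0.33). Rxrb, with a mean of 3.97 below the bound, had a difference of -0.39 (interval -0.98 to 0.21).

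Nfe2l2, which encodes NRF2, stood at 8.87 and 8.74 with vehicle and at 8.53 and 8.77 with aldosterone, which overlap. Over all 4 lists together, 41 genes had a mean above 4. Of these, 11 were lower in both aldosterone rats without overlap (26.8%, against 18.7% of rows above 4). Another 4 were higher (9.76%, against 13.4%). Nqo1, the quinone reductase, stood at 7.21 and 7.09 with vehicle and at 5.52 and 6.32 with aldosterone. Its difference was -1.23 (interval -2.05 to -0.42, adjusted p of 0.861 in limma). Txnrd1, thioredoxin reductase, stood at 7.75 and 7.96 against 7.16 and 7.03, a difference of -0.76 (interval -1.12 to -0.40, adjusted p of 0.711 in limma). Gpx2, the glutathione peroxidase of gut epithelium, stood at 7.02 in both vehicle rats and at 6.56 and 6.47 with aldosterone, a difference of -0.51.

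Gclc, the catalytic subunit of the first enzyme of glutathione synthesis, stood at 10.73 and 10.56 with vehicle and at 10.31 and 9.94 with aldosterone. Gsr, glutathione reductase, stood at 8.58 and 8.46 against 8.22 and 8.29. They were named for their small unadjusted p-values. In the other direction Tst, the mitochondrial thiosulfate sulfurtransferase, stood at 6.66 and 7.27 against 7.37 and 7.37, with an interval from -0.24 to 1.05. Slc7a11, with a mean of 2.47 below the bound, was also higher, at 1.81 and 2.19 against 2.91 and 2.96. In Gclm, Gss, Hmox1 and Gpx1 the groups overlapped. Slc7a11 and these overlapping genes are named here after their values were seen.

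Among the cofactors, Slc26a2, a sulfate transporter, stood at 8.09 and 8.28 with vehicle and at 9.11 and 8.70 with aldosterone. It was 1.65-fold higher, with an adjusted p of 0.891 in limma. Por, the reductase that serves all microsomal P450 enzymes, stood at 9.01 and 8.78 against 8.94 and 8.71, and its difference had an interval from -0.48 to 0.33. Cyb5r3, cytochrome b5 reductase, stood at 9.25 and 8.68 against 8.23 and 8.53, again without overlap. Ugdh, which makes the glucuronic acid donor, stood at 10.81 and 10.03 against 9.99 and 10.05. Of the listed transporters, Abcc3, a pump of glucuronides and bile salts, stood at 9.63 and 9.84 with vehicle and at 9.24 and 9.34 with aldosterone, lower in 2 of 2 rats. Slco2a1, the prostaglandin transporter, stood at 8.59 and 8.63 against 8.38 and 8.06. The drug pump genes Abcb1b and Abcg2 overlapped, at 3.94 and 4.37 against 4.38 and 4.23 and at 6.88 and 7.87 against 7.31 and 6.80.

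**Figure D5:**
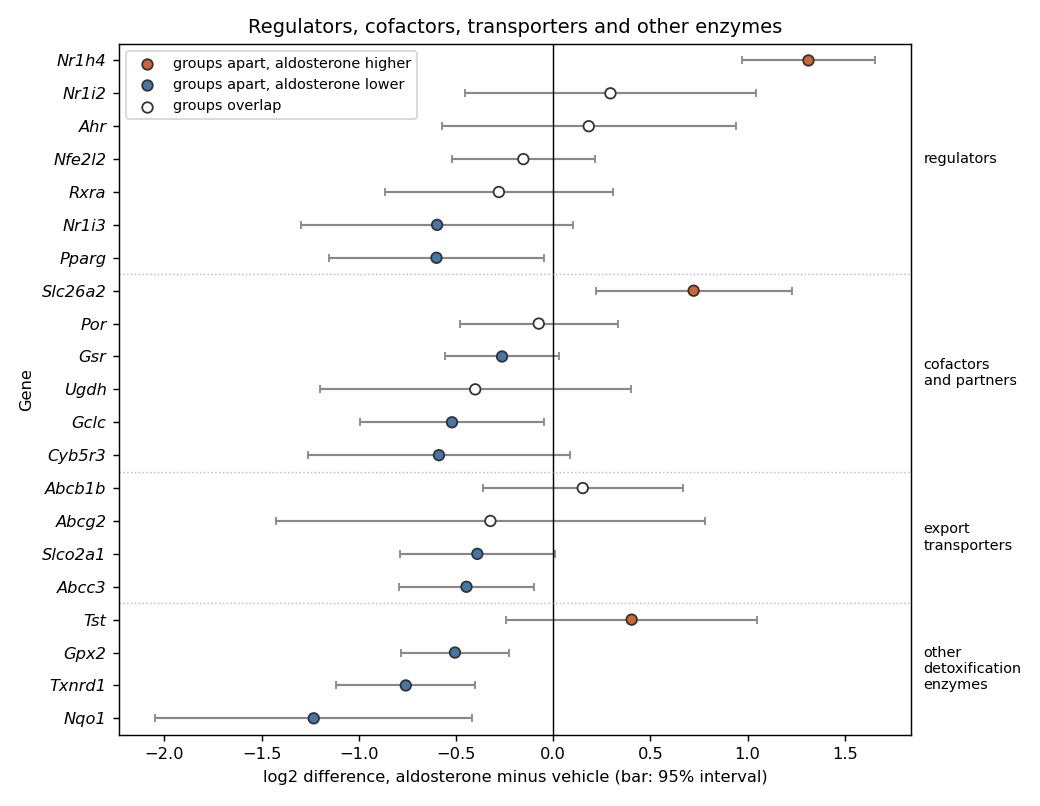
log2 difference, aldosterone minus vehicle (horizontal axis), with 95% intervals of limma's main fit, of 21 genes of the 4 partner lists, separated by dotted lines. Filled points mark groups that did not overlap; Nr1h4 at 1.31 and Slc26a2 at 0.72 are higher and Nqo1 at -1.23 and Txnrd1 at -0.76 are lower with aldosterone.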

How the data were processed

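Expression was measured in surface colonocytes of 2 vehicle and 2 aldosterone rats, 1 exon array each. Per the labels, arrays of a group come from different rats. The deposited values are log2 expression values, 1 per row and array; the submitters' processing notes name Partek, Affymetrix Expression Console and RMA, without version, order or role. RMA subtracts background, equalizes arrays and summarises probes. The log2 scale was read from the range of the values. The genome build is not given in the sources used here, nor are detection calls.

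Rows were named from the platform annotation. Of 19403 rows 13327 had 1 symbol, 620 several and 5456 none, and all 79 members kept their symbols in RefSeq of GRCr8. Another 29 rows with several symbols, at least 1 of them of these families, were left out. Groups were compared with limma 3.58.1 in R 4.3.3 (lmFit, eBayes, constant prior, two-sided, all rows, Benjamini-Hochberg over all rows, threshold 0.05), which was tested on simulated data. Intervals are 95% intervals of that fit. Alternatives were other normalizations, level filters, priors, the replicate block and each array left out. Members are named if above a mean of 4, first in their family or next to the bound, as are up to 4 genes per partner list with the smallest p above that bound, 6 partner genes fixed by name, and those marked as chosen by value. Members, lists and rules were chosen with earlier results of these data known. Promoter windows were searched and aligned with Python 3.11.15 and Biopython 1.88; protein sequences were not used here. The number of arrays limits the precision.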

Additional observations from a re-analysis of the deposited data

How the results depend on the processing

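The 79 genes had 0 calls in limma in all 13 settings. Counts over all rows moved from 0 to 1 with rows below the median left out, 12 with rows whose mean was below 4 left out, 21 with the intensity trend and 6 with the trend and the replicate block. With the replicate block alone limma called 0 rows; the correlation over rows between the groups' differences of replicate 1 and 2 was 0.15, or 0.093 above a mean of 4, with 2 pairs, so the numbers were not taken to pair the rats. Of the 17 genes above 4, those higher without overlap were 2 after quantile normalization, and those lower 1 after centring. Of all 79, those lower were 8 and 11 in these settings. Without an array, 2 rats against 1 overlap less by construction, and these counts ran from 3 to 10, 3 to 10, 17 to 44 (higher, all) and 8 to 27 (lower, all). The number of mu-class genes lower ran from 4 to 7. The median of the 17 genes ran from -0.15 to 0.27, of cofactors from -0.14 to 0.098 and of other enzymes from -0.50 to 0.16. A bound of 3 or 5 marked 26 or 11 members. Of 51 named genes, 27 kept their direction in all settings, Sult1b1, Aldh1a3, Gstm1 and Gstm2 among them, and 24 reversed when an array was left out and in no other setting. Their differences ran from -0.066 to 0.37 for Abcb1b, from -0.82 to 0.17 for Abcg2, from -0.14 to 0.51 for Ahr, from -2.58 to 0.77 for Aldh1a1, from -0.92 to 0.31 for Aldh2, from -0.041 to 0.28 for Aldh3a2. They ran also from -0.36 to 0.20 for Aldh9a1, from -0.18 to 0.084 for Ces2c, from -0.41 to 0.26 for Cyp1a2, from -0.10 to 0.26 for Cyp2j4, from -0.63 to 0.34 for Cyp3a18, from -0.34 to 0.46 for Cyp4f5. Further ranges were from -0.15 to 0.27 for Cyp4f6, from -0.011 to 0.18 for Gstcd, from -0.57 to 0.025 for Gstm3, from -0.45 to 0.13 for Gstm4, from -1.30 to 0.46 for Gstm5, from -1.14 to 0.57 for Gstm7. The last ranges were from -0.27 to 0.57 for Gsto1, from -0.11 to 0.33 for Gstp1, from -0.069 to 0.66 for Nr1i2, from -0.19 to 0.041 for Por, from -0.65 to 0.016 for Sult2b1, from -0.17 to 0.39 for Ugt2b1. The cause was not tested. No member had several rows, so averaging rows was not run.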

Other observations

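Some rows of these families carry several gene symbols and could not be given to a gene. Of 29 such rows, 4 had a mean above 4. Row 7330154 stood at 4.20 and 4.79 with vehicle and at 5.59 and 5.74 with aldosterone, a difference of 1.17 with an adjusted p of 0.798 in limma. Row 7357340 stood at 5.83 and 6.09 against 6.38 and 6.78. Row 7330159 stood at 7.15 and 7.32 against 7.48 and 7.47, and row 7288864 at 10.06 and 9.67 against 9.49 and 9.59. The groups did not overlap in any of the 4 rows, of which 3 were higher and 1 lower with aldosterone. Among all rows above a mean of 4, 13.4% were higher and 18.7% lower without overlap. Rows of families with related sequences are not independent of each other.

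Among the 12 other detoxification enzymes above a mean of 4, aldosterone rat 1 was the lowest of the 4 rats in 7 and rat 2 the highest in 6, and both held in 4, named here after their values were seen: Akr1a1, Gpx1, Mgst2 and Ephx1. Mgst2, a microsomal glutathione transferase of leukotriene synthesis, stood at 7.63 and 7.51 with vehicle, at 7.19 in aldosterone rat 1 and at 8.47 in aldosterone rat 2. Ephx1, the microsomal epoxide hydrolase, stood at 5.15 and 5.16 with vehicle, at 4.63 in aldosterone rat 1 and at 5.97 in aldosterone rat 2. Others went the other way. Cbr1, a carbonyl reductase, stood at 6.72 and 6.25 with vehicle, at 7.45 in aldosterone rat 1 and at 6.57 in aldosterone rat 2, and aldosterone rat 2 was the lowest for Txnrd1 and Gpx2.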
